A study of Mus musculus with 12 samples.

Results

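The integrin and laminin subunit genes were read in lung tumours of mice treated with the histone deacetylase inhibitor entinostat, with an antibody against PD-1, or with both. The set took every row of the count table whose symbol begins with Itga or Itgb, leaving out the unrelated Itgb1bp1, Itgb1bp2, Itgb3bp and Itgbl1, together with every laminin chain row (Lama, Lamb or Lamc and a number). It holds 38 of the 22738 rows, of which 27 are integrin genes (18 alpha and 9 beta chains) and 11 are laminin genes (5 alpha, 3 beta and 3 gamma chains). Of the 38, 37 passed the filter on low counts and were tested. The exception was Itgb2l, a gene close in sequence to Itgb2, which had at most 16 counts in a library.

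Laminins are cross-shaped proteins of the basement membrane, each built from an alpha, a beta and a gamma chain. Integrins are transmembrane receptors, each made of an alpha and a beta chain, that bind laminin, collagen, fibronectin or counter-receptors on other cells and join them to the actin cytoskeleton through talin, kindlin and vinculin. In the lung the epithelium, endothelium, smooth muscle and leukocytes carry different sets of chains, so that a tumour's bulk RNA mixes several sources.

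All mice carried the alleles Rb1 fl/fl, p53 fl/fl and Myc lsl/lsl T58A (the RPM genotype, Rb1/Trp53/MycT58A), and tumours were started at 8 weeks of age with Ad5CGRP-Cre given into the trachea, a virus in which the promoter of a neuroendocrine gene drives Cre. The 4 groups of 3 libraries were the combination of entinostat and anti-PD-1, entinostat alone (15 mg/kg daily by mouth for 28 days), anti-PD-1 alone (10 mg/kg for 4 weeks) and control. The combination received both agents, per the titles. The labels name methylcellulose and an isotype antibody as controls without saying which of them the control libraries had. They also do not say that the libraries of a group come from separate mice, so p-values measure only the spread between libraries, which need not be that between mice.

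Total counts ranged from 31295987 to 54001886 per library, and the set took between 22727 and 54601 of them. Neuroendocrine markers were detected in every library, with Insm1 at 39.1 to 83.4 CPM with entinostat and at 45.4 to 101 CPM without it. Rb1 lay between 26.6 and 81.7 CPM, and counts per gene do not show its deleted part, so it does not check the genotype. Control library 1 was the outermost on the leading principal component over all genes (27.2% of the variance). Values are CPM, counts scaled to the library total and by TMM factors, and levels of different genes are compared only as CPM per kb of the longest annotated transcript.

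Itgb1, the beta chain shared by most matrix-binding integrins, was the most abundant member at a mean of 85.4 CPM per kb over the 12 libraries, and took 39.6% to 76.2% of the summed integrin level per kb. The next levels were 11.2 CPM per kb for Itga6, 8.62 for the laminin chain Lama5, 8.07 for Lamc1, 6.79 for Lamb1 and 6.17 for Itgb5. Lama5 took 14.5% to 34.0% of the summed laminin level per kb. At the low end stood Itgb2l at 0.06 CPM per kb, and Itgad, Itga2, Itgb8, Lama3 and Lama1 at 0.32 to 0.42 CPM per kb. The points of neighbouring genes overlapped through most of this order, and only Itgb1 lay above every other member in each library.

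**Figure D1:**
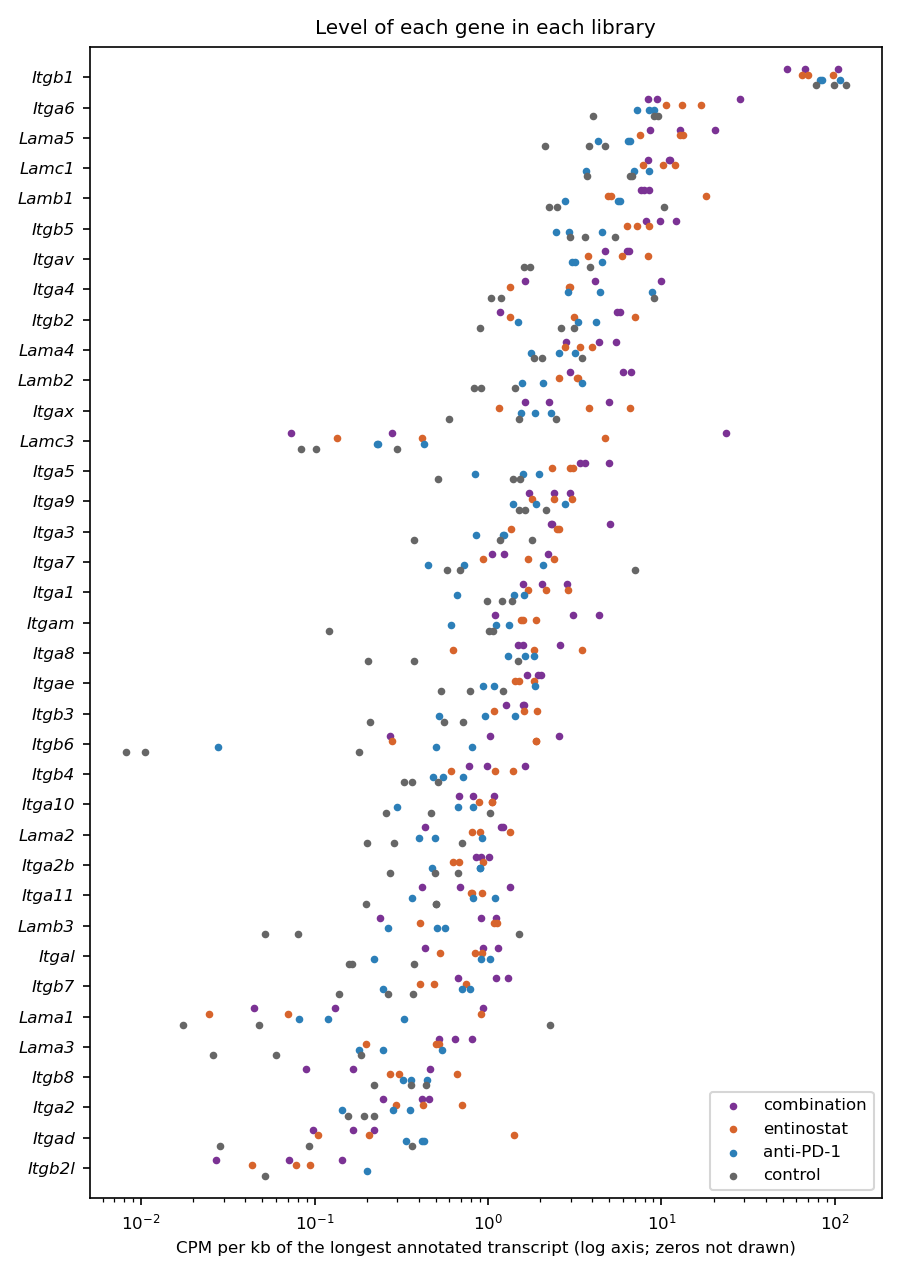
Each point is a library's CPM per kb of transcript on a log axis, with genes ordered by their mean over the 12 libraries and coloured by group (combination, entinostat, anti-PD-1, control), with 1 gene not drawn. Itgb1, at a mean of 85.4 CPM per kb, stands apart from the other genes, among which Itga6 follows at 11.2.

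The treatment layout crosses entinostat with anti-PD-1, and the effect of entinostat was read as the mean of its effects without and with the antibody. With entinostat, 7 of the 37 tested genes were higher and 0 were lower at an adjusted p under 0.05 in edgeR's quasi-likelihood test. They were the laminin chains Lama5 and Lamb2 and the integrin chains Itgb5, Itga5, Itgb4, Itgav and Itga1. Of all 17426 genes tested, 10.6% passed, 3.87% as higher and 6.74% as lower. The log2 fold change was positive in 32 of the 37, its median was 0.89 (0.88 for the integrin and 1.00 for the laminin genes) beside 0.02 over all genes tested, and 22 genes had an unadjusted p under 0.05, all of them higher, where 29.1% of all genes did, 13.1% as higher and 15.9% as lower. The 6 libraries with entinostat did not overlap the 6 without it in 3 genes, Itgb5, Lama5 and Itga5, all higher, where 4.33% of all genes did not overlap, 2.01% as higher and 2.32% as lower. In bulk tumour RNA, more cells of a type and more RNA per cell cannot be told apart.

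**Figure D2:**
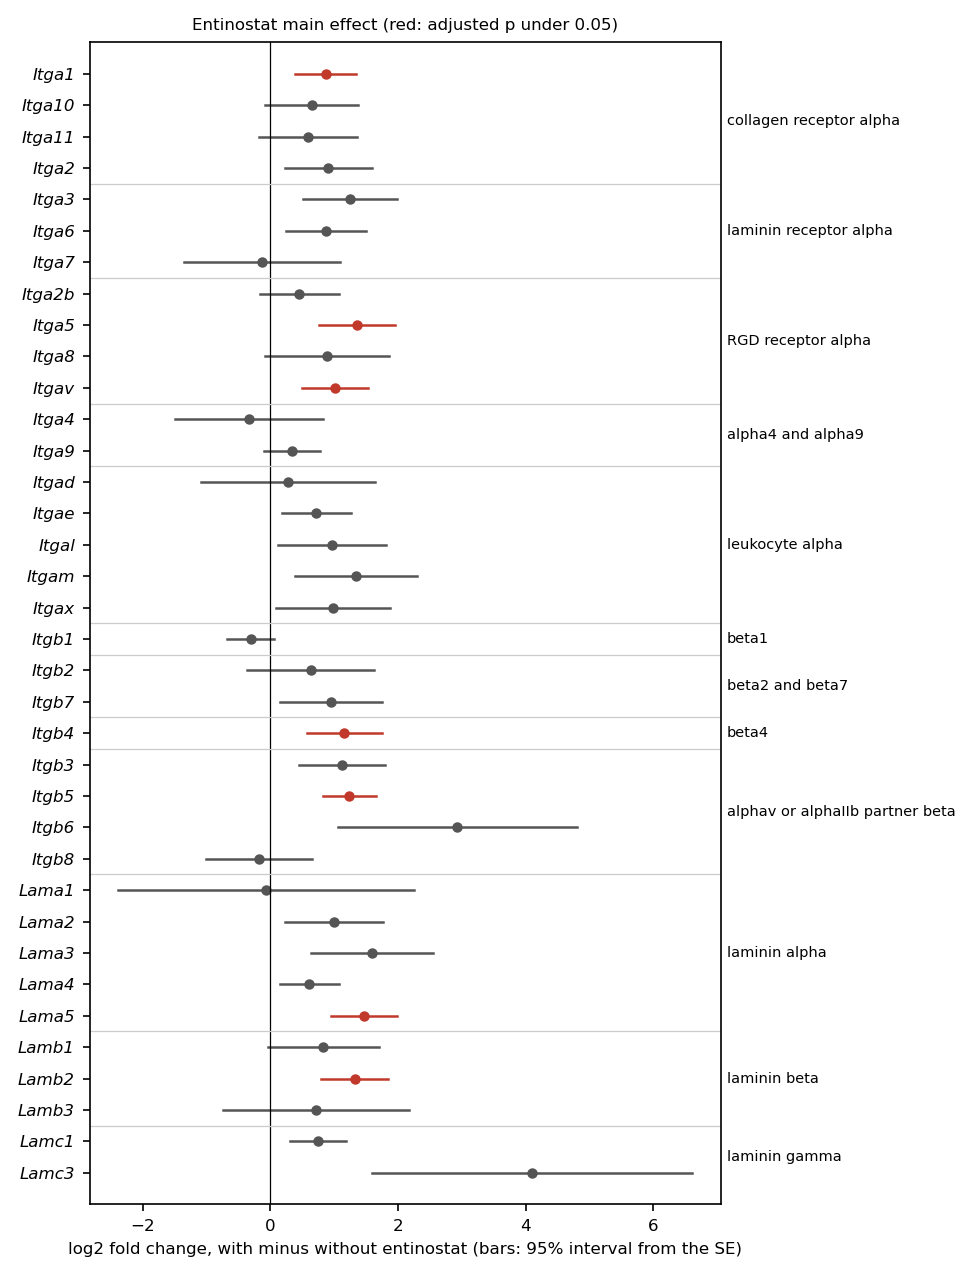
Points are log2 fold changes with minus without entinostat for the tested genes (1 not drawn), ordered by role, and bars are 95% intervals from the SE. The intervals take the SE as normal and are narrower than the F test implies. That of Itgax runs from 0.09 to 1.88, at an unadjusted p of 0.0526 in the quasi-likelihood test. Red marks the 7 genes past the threshold, and of the 5 points left of 0 the lowest is Itga4 at -0.33.

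The genes Lama5, Lamb2 and Itgb5 passed in each of the 12 fits that left out a library. Their promoter windows, from 250 bases before to 50 bases after the RefSeq start (GRCm38.p6), are shown to place the changed transcripts beside their sequence. Capitals mark the GC box, searched as GGGCGG on both strands, which is bound by factors of the Sp family. The Lama5 window lies on chromosome 2 on the minus strand (chr2:180225810-180226109), that of Itgb5 on chromosome 16 on the plus strand (chr16:33829415-33829714), and that of Lamb2 on chromosome 9 on the plus strand (chr9:108479612-108479911).
Lama5: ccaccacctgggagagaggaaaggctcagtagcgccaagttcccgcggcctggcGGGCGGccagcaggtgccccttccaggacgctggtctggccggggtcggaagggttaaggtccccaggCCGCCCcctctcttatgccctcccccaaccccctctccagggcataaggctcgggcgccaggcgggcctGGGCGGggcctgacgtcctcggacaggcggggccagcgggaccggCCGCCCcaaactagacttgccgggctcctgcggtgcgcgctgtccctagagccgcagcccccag
Itgb5: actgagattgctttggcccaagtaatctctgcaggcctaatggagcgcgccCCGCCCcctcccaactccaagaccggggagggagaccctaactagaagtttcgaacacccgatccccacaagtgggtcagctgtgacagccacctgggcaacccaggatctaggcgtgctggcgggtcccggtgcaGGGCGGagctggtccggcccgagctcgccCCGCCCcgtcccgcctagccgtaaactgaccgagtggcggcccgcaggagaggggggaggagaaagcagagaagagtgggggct
Lamb2: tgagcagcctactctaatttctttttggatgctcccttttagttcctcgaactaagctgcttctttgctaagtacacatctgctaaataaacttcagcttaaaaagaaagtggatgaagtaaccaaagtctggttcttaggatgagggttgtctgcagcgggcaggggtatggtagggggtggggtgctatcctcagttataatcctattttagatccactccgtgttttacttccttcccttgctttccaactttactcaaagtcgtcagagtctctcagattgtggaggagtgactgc
Lama5 holds 4 GC boxes in a window of 72.7% G and C, Itgb5 holds 3 in 65.7%, and Lamb2 holds 0 in 44% G and C. A GC box stands in 35.7% of all 32851 promoter windows. Of the 24 members whose windows were searched, 11 had it in any of theirs (27 windows). Members on a single chromosome were left out, and others had no window at hand. Of the 7 called members 6 had a window, and Itgb4 had none. The other motifs searched on both strands were the TEAD motif GGAATG, the AP-1 motif TGANTCA, the E-box CACGTG and the CCAAT box CCAAT, and the windows of Lama5, Itgb5 and Lamb2 hold none of them. Over the 24 members, TEAD matched in 3 (14.7% of all windows), AP-1 in 3 (7.81%), the E-box in 0 (7.15%) and the CCAAT box in 4 (37.4%). A match is a run of letters, not a bound site.

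Among the laminin alpha chains, 1 of 5 passed. Lama5, the alpha chain of most adult epithelial and vascular basement membranes, had 146, 98.2 and 232 CPM with the combination, 151, 86.2 and 146 with entinostat, 48.9, 74.8 and 72.8 with anti-PD-1, and 54.0, 24.1 and 43.8 in controls. Every library with entinostat lay above every library without it. The means were 143 ± 51.4 CPM with entinostat and 53.1 ± 19.0 CPM without (SD, n = 6 each), with a log2 fold change of 1.47, SE 0.26 and adjusted p = 0.0112. Lama4, an alpha chain of vessel walls, had 33.3, 26.5 and 17.0 CPM with the combination, 20.6, 24.1 and 16.8 with entinostat, 15.5, 19.2 and 10.7 with anti-PD-1, and 12.3, 11.1 and 21.2 in controls. Its ranges overlapped, from 16.8 to 33.3 CPM with entinostat and from 10.7 to 21.2 CPM without, and it missed the threshold (log2 fold change 0.61, SE 0.24, adjusted p = 0.114).

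Lama3, the alpha chain of the epithelial laminin that anchors hemidesmosomes, had 6.80, 5.51 and 8.55 CPM with the combination, 5.52, 5.30 and 2.08 with entinostat, 2.61, 5.75 and 1.90 with anti-PD-1, and 0.274, 1.95 and 0.633 in controls. The 4 lowest libraries were the 3 controls and anti-PD-1 library 3, and the main effect missed the threshold (log2 fold change 1.60, SE 0.49, adjusted p = 0.0572). Lama2, the muscle and nerve alpha chain, ranged from 4.15 to 12.9 CPM with entinostat and from 1.92 to 8.86 CPM without (log2 fold change 1.00, SE 0.39, adjusted p = 0.116). Lama1, an alpha chain best known from the embryo, is described with the genes that single libraries carried.

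Of the laminin beta chains, 1 of 3 passed. Lamb2, known from vascular, kidney and synaptic basement membranes, had 37.4, 16.7 and 33.8 CPM with the combination, 18.4, 18.6 and 14.4 with entinostat, 8.86, 19.6 and 11.7 with anti-PD-1, and 5.15, 8.11 and 4.71 in controls. A single library without entinostat, anti-PD-1 library 2 at 19.6 CPM, reached into the range of those with it. The means were 23.2 ± 9.78 CPM with entinostat and 9.69 ± 5.49 CPM without (SD, n = 6 each), with a log2 fold change of 1.32, SE 0.27 and adjusted p = 0.015. Lamb1, the broadly expressed beta chain, had 43.9, 46.1 and 48.9 CPM with the combination, 105, 29.6 and 28.5 with entinostat, 16.0, 33.3 and 32.6 with anti-PD-1, and 59.7, 13.0 and 14.5 in controls. The highest value came from entinostat library 1 and the lowest from control library 2, the control values spread from 13.0 to 59.7 CPM, and the test was not passed (log2 fold change 0.83, SE 0.44, adjusted p = 0.233). Lamb3, partner of Lama3, ranged from 1.16 to 5.45 CPM with entinostat and from 0.253 to 7.39 CPM without (log2 fold change 0.71, SE 0.74, adjusted p = 0.55).

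No laminin gamma chain passed. Lamc1, the gamma chain of most laminins, had 84.9, 84.3 and 64.1 CPM with the combination, 91.4, 77.7 and 59.8 with entinostat, 52.9, 65.0 and 28.0 with anti-PD-1, and 51.7, 28.4 and 50.03 in controls. Only anti-PD-1 library 2 reached above the lowest libraries with entinostat, and the adjusted p was just past the threshold (log2 fold change 0.75, SE 0.23, adjusted p = 0.0555). Lamc3, a gamma chain of restricted expression, had 0.429, 1.63 and 138 CPM with the combination, 0.791, 2.43 and 27.7 with entinostat, 1.37, 1.34 and 2.51 with anti-PD-1, and 0.489, 0.600 and 1.75 in controls. Combination library 3 and entinostat library 3 were the highest, and the other libraries of those groups overlapped those without entinostat (log2 fold change 4.10, SE 1.28, adjusted p = 0.0611). Its log2 fold change ranged from 1.35 to 4.48 as single libraries were left out.

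Summed over the 11 laminin genes, the level was 270 to 560 CPM with entinostat (377 ± 108, SD, n = 6) and 105 to 238 CPM without it (170 ± 47.6, n = 6), with no overlap. Without Lamc3 the sums were 268 to 431 CPM and 105 to 236 CPM. Without Lama5, the largest share, they were 163.1 to 329 CPM and 81.2 to 162.9 CPM, and still did not overlap. These sums are descriptions and carry no test.

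**Figure D3:**
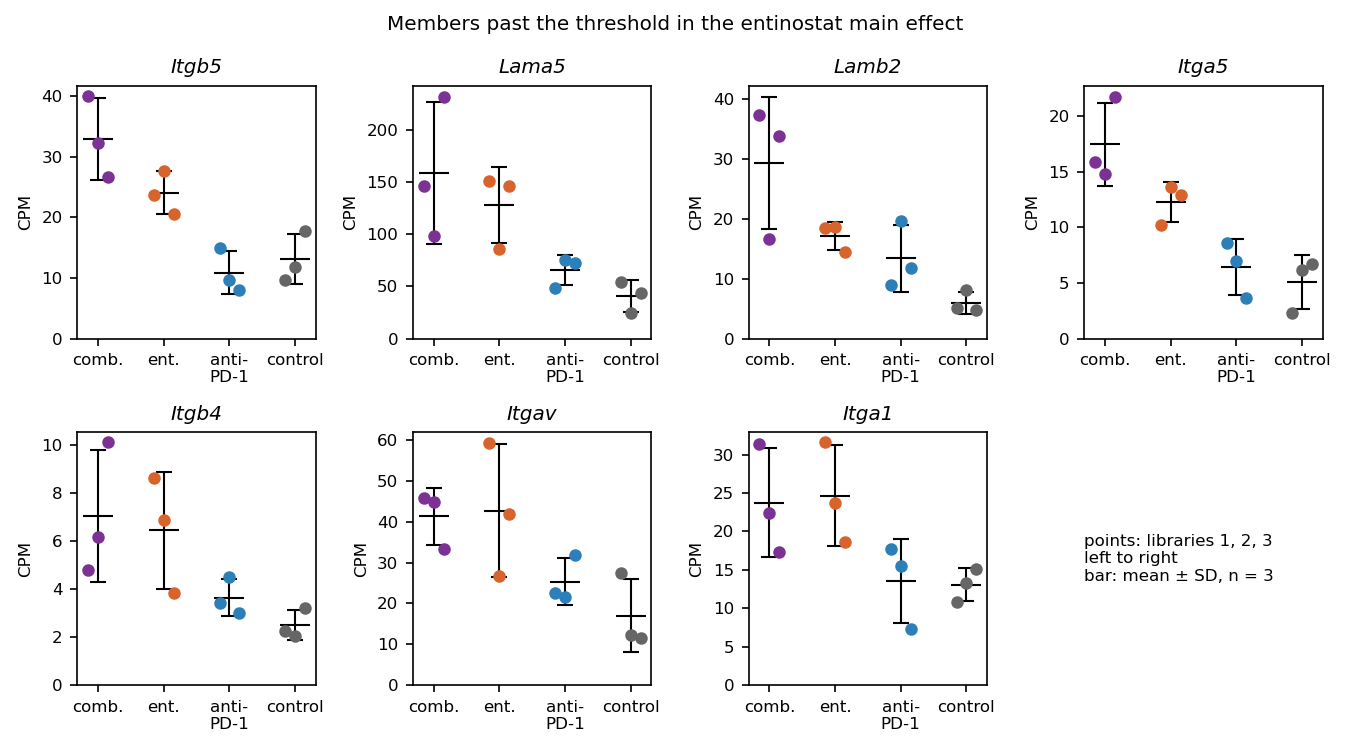
Points are the CPM of libraries 1, 2 and 3, left to right, in the combination, entinostat, anti-PD-1 and control groups for the 7 genes past the threshold, and bars show the mean and SD of 3 libraries. For Lama5, Itgb5 and Itga5 the 6 libraries with entinostat lie above the 6 without, and for the other 4 genes the ranges overlap.

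Of the 4 integrin alpha chains that pair with beta1 to bind collagen, 1 passed. Itga1, the collagen IV receptor of smooth muscle and some T cells, had 31.4, 22.4 and 17.4 CPM with the combination, 31.7, 23.7 and 18.6 with entinostat, 17.7, 15.5 and 7.31 with anti-PD-1, and 10.8, 13.3 and 15.1 in controls. The ranges met only at combination library 3 with 17.4 CPM and anti-PD-1 library 1 with 17.7 CPM. Its means were 24.2 ± 6.15 CPM with entinostat and 13.3 ± 3.72 CPM without (SD, n = 6 each), with a log2 fold change of 0.86, SE 0.25 and adjusted p = 0.0463, a call lost in each of the 12 fits that left out a library. Itga10, the chain of cartilage and some mesenchymal cells, had 4.12, 3.45 and 5.48 CPM with the combination, 5.32, 5.33 and 4.46 with entinostat, 3.41, 4.13 and 1.51 with anti-PD-1, and 1.31, 2.38 and 5.19 in controls. The control values alone covered most of that range (log2 fold change 0.65, SE 0.37, adjusted p = 0.269). Itga2, on epithelium and platelets, ranged from 1.76 to 5.01 CPM with entinostat and from 1.02 to 2.54 CPM without, and Itga11, of fibroblasts, from 2.06 to 6.66 CPM and from 0.979 to 5.45 CPM.

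The 3 laminin-binding alpha chains pair with beta1 and, for Itga6, with beta4, and 0 passed. Itga6 had 35.9, 40.6 and 122 CPM with the combination, 56.5, 45.9 and 73.0 with entinostat, 31.0, 39.3 and 36.4 with anti-PD-1, and 41.0, 39.2 and 17.3 in controls. Combination library 3 was the highest, and control library 3 the lowest (log2 fold change 0.87, SE 0.32, adjusted p = 0.097). Itga3, an epithelial laminin receptor, had 11.4, 11.3 and 24.6 CPM with the combination, 12.2, 12.5 and 6.57 with entinostat, 4.14, 6.00 and 5.92 with anti-PD-1, and 1.82, 8.78 and 5.72 in controls. Of the 6 libraries with entinostat, 5 were at 11.3 CPM or more and lay above every library without it, and entinostat library 3 at 6.57 CPM lay within their range (log2 fold change 1.25, SE 0.37, adjusted p = 0.0544). Itga7, the muscle laminin receptor, was highest in control library 1 at 28.4 CPM and spanned 1.80 to 9.65 CPM elsewhere.

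Of the 4 alpha chains that read the RGD motif of fibronectin, vitronectin and fibrinogen, 2 passed. Itga5, the fibronectin receptor chain, had 15.9, 14.8 and 21.7 CPM with the combination, 10.2, 13.6 and 13.0 with entinostat, 8.62, 6.99 and 3.69 with anti-PD-1, and 2.27, 6.15 and 6.73 in controls. The lowest library with entinostat stood above the highest without it, and the combination libraries were the 3 highest of all. Means were 14.9 ± 3.87 CPM with entinostat and 5.74 ± 2.34 CPM without (SD, n = 6 each), with a log2 fold change of 1.36, SE 0.30 and adjusted p = 0.0208.

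Itgav, the alpha chain that pairs with Itgb3, Itgb5, Itgb6 and Itgb8, had 45.9, 44.9 and 33.3 CPM with the combination, 59.3, 26.7 and 42.0 with entinostat, 22.4, 21.5 and 31.9 with anti-PD-1, and 27.4, 12.3 and 11.4 in controls. Entinostat library 2 at 26.7 CPM lay below anti-PD-1 library 3 and control library 1, and the other libraries did not cross. On average it stood at 42.0 ± 11.2 CPM with entinostat and 21.1 ± 8.11 CPM without (SD, n = 6 each), with a log2 fold change of 1.02, SE 0.26 and adjusted p = 0.0337, and it passed in 2 of the 12 fits that left out a library. Itga8, on mesenchymal cells, ranged from 3.64 to 20.4 CPM with entinostat and from 1.19 to 10.7 CPM without, and Itga2b, the platelet chain, from 2.17 to 3.49 CPM and from 0.939 to 3.11 CPM.

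The alpha4 and alpha9 chains, which bind VCAM1, fibronectin or tenascin, did not pass. Itga4, also a leukocyte homing receptor, had 16.1, 40.3 and 97.6 CPM with the combination, 28.6, 13.0 and 28.9 with entinostat, 28.2, 43.1 and 85.8 with anti-PD-1, and 87.9, 11.6 and 10.2 in controls. Combination library 3, control library 1 and anti-PD-1 library 3 held values of 85.8 CPM or more, so that its spread followed single libraries in 3 groups (log2 fold change -0.33, SE 0.59, adjusted p = 0.735, with 0.54 when control library 1 was left out). Itga9 had 20.7, 17.0 and 12.1 CPM with the combination, 21.5, 16.9 and 12.7 with entinostat, 19.5, 13.3 and 9.79 with anti-PD-1, and 10.6, 15.2 and 11.5 in controls. Its groups overlapped throughout (log2 fold change 0.34, SE 0.23, adjusted p = 0.341).

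The 5 alpha chains of leukocytes had positive log2 fold changes of 0.28 to 1.34, and 0 passed. Itgam, the CD11b chain of myeloid cells, had 14.5, 20.3 and 5.15 CPM with the combination, 8.82, 7.44 and 7.27 with entinostat, 5.21, 6.18 and 2.87 with anti-PD-1, and 0.568, 4.74 and 5.04 in controls. Only combination library 3 at 5.15 CPM lay within the range of the libraries without entinostat (log2 fold change 1.34, SE 0.49, adjusted p = 0.0961). Itgax, the CD11c chain of alveolar macrophages and dendritic cells, had 20.3, 9.13 and 6.58 CPM with the combination, 26.7, 15.4 and 4.70 with entinostat, 7.55, 9.39 and 6.25 with anti-PD-1, and 2.43, 10.0 and 6.12 in controls. The 4 groups overlapped (log2 fold change 0.98, SE 0.46, adjusted p = 0.176). Itgal, Itgae and Itgad lay between 0.117 and 7.75 CPM in every library. The macrophage and monocyte markers were measured alongside: their summed level was 262 to 1331 CPM with entinostat and 311 to 729 CPM without, 0 of 15 passed and none was at 0 in any library. Of these 15 markers 13 had positive log2 fold changes, with a median of 0.74. With their mean log2 CPM as a covariate, 5 of the 37 members passed in the entinostat main effect and 833 genes in all (7 and 1849 without it), and Itgb2 had a log2 fold change of -0.43.

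Itgb1 was the only beta chain other than Itgb8 with a negative log2 fold change. It had 257, 397 and 202 CPM with the combination, 374, 248 and 269 with entinostat, 411, 315 and 322 with anti-PD-1, and 378, 442 and 296 in controls. The libraries without entinostat all lay within the range of those with it or above it, and the interval from -0.68 to 0.06 on the log2 scale spans 0 (log2 fold change -0.31, SE 0.19, adjusted p = 0.3). Summed over all 27 integrin genes, the level was 537 to 769 CPM with entinostat and 443 to 627 CPM without, and overlapped. For the 26 integrin genes other than Itgb1 it was 279 to 429 CPM with entinostat and 147 to 249 CPM without, with no overlap. The sum over all 9 beta chains, mostly Itgb1, overlapped (254 to 471 CPM and 334 to 472 CPM). These sums also carry no test.

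Itgb5, a partner of alphav that binds vitronectin, had 40.1, 32.2 and 26.6 CPM with the combination, 23.8, 27.7 and 20.7 with entinostat, 14.9, 9.63 and 8.07 with anti-PD-1, and 9.73, 11.9 and 17.7 in controls. All 6 libraries with entinostat exceeded all 6 without it, and the combination libraries lay at 26.6 CPM and above. The means were 28.5 ± 6.87 CPM with entinostat and 12.0 ± 3.66 CPM without (SD, n = 6 each), with a log2 fold change of 1.24, SE 0.21 and adjusted p = 0.00988, the smallest adjusted p of the set in the entinostat main effect.

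Itgb4, which pairs with Itga6 in the hemidesmosome, had 4.80, 6.16 and 10.1 CPM with the combination, 8.64, 6.85 and 3.82 with entinostat, 3.41, 4.48 and 2.99 with anti-PD-1, and 2.25, 2.03 and 3.19 in controls. Entinostat library 3 at 3.82 CPM lay below anti-PD-1 library 2 at 4.48 CPM, and no other pair crossed. Averages were 6.73 ± 2.35 CPM with entinostat and 3.06 ± 0.881 CPM without (SD, n = 6 each), with a log2 fold change of 1.16, SE 0.30 and adjusted p = 0.033, a call made in 4 of the 12 fits that left out a library.

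Itgb3, the partner of alphav and of the platelet chain, had 9.23, 9.28 and 7.39 CPM with the combination, 9.30, 11.0 and 6.29 with entinostat, 5.55, 8.29 and 3.02 with anti-PD-1, and 1.21, 3.21 and 4.18 in controls. The 3 controls were among the 4 lowest libraries, and the test was narrowly missed (log2 fold change 1.13, SE 0.34, adjusted p = 0.0574). Itgb6, an epithelial beta chain that activates latent TGF-beta, ranged from 1.31 to 12.4 CPM with entinostat and from 0.0391 to 3.88 CPM without (log2 fold change 2.93, SE 0.95, adjusted p = 0.0689). Itgb8, its relative, ranged from 0.754 to 5.58 CPM and from 1.84 to 3.75 CPM (log2 fold change -0.17, SE 0.42, adjusted p = 0.813).

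The beta2 and beta7 chains of leukocytes did not pass with entinostat. Itgb2, the CD18 chain, had 17.1, 16.5 and 3.49 CPM with the combination, 20.9, 9.25 and 3.97 with entinostat, 9.79, 12.4 and 4.41 with anti-PD-1, and 2.66, 9.27 and 7.84 in controls. Each group overlapped the others (log2 fold change 0.63, SE 0.51, adjusted p = 0.428). Itgb7, of gut-homing lymphocytes and some myeloid cells, had 1.80, 3.496 and 2.99 CPM with the combination, 1.32, 1.08 and 2.02 with entinostat, 1.91, 2.12 and 0.665 with anti-PD-1, and 0.372, 0.993 and 0.709 in controls. The combination libraries and the controls did not overlap, and the main effect missed the threshold (log2 fold change 0.96, SE 0.41, adjusted p = 0.145).

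The entinostat effect was measured in pairs of groups that share no library. For entinostat against control, 2 of 37 genes passed, Lama5 (log2 fold change 1.65, SE 0.38, adjusted p = 0.0322) and Lamb2 (log2 fold change 1.52, SE 0.38, adjusted p = 0.0433), where 5.27% of all genes passed, 1.3% as higher and 3.98% as lower. The 3 entinostat libraries lay above the 3 controls in 18 of the 37 genes and below them in 0. Of all genes 28.8% did not overlap, 13.1% as higher and 15.7% as lower. At an unadjusted p under 0.05 were 16 members, all higher, beside 24.4% of all genes (9.56% higher, 14.9% lower). The median log2 fold change of the set was 1.08, and that of all genes 0.00. Lama5 passed in 6 and Lamb2 in 4 of the 12 fits that left out a library, and with only the 6 libraries compared in the fit 0 genes in all passed. The share of counts from the structural RNA genes Rpph1, Rn45s and Rmrp also separated these groups, at 15.2% to 19.3% with entinostat and 7.84% to 13.2% in controls, beside 17.7% to 18.05% with the combination and 20.5% to 36.4% with anti-PD-1. With these 3 genes left out of the fit and of the library totals, 2 members and 918 genes in all passed for entinostat against control, beside 2 and 919 with them.

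For the combination against anti-PD-1, 0 of 37 genes passed in edgeR, as did 0% of all 17426 genes. In this comparison 9 members had an unadjusted p under 0.05, all higher, beside 12.4% of all genes (6.06% higher, 6.38% lower). DESeq2 called 2 members and 2.52% of all genes. The libraries did not overlap in 7 genes as higher and in 1, Itgad, as lower, beside 19.2% of all genes (9.92% higher, 9.25% lower). Of the 7 genes called above, Itgb5 had the largest fold change here (log2 fold change 1.60, SE 0.30, adjusted p = 0.201), and the median of the set was 0.71, beside 0.05 over all genes.

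Set side by side, 31 of the 37 genes were positive in both of these comparisons (83.8%), against 37.2% of all genes tested, and 2 were negative in both. Higher without overlap in both were 4 of the 37 (10.8%), against 3.38% of all genes, and these were Itgb4, Itga5, Itgb5 and Lama5. The difference between the comparisons, the interaction of entinostat and anti-PD-1, passed for 0 members and 0% of all genes in edgeR and for 0 members and 0.311% of all genes in DESeq2. At an unadjusted p under 0.05 stood 1 member, the myeloid chain Itgad, with a negative value, and 6.04% of all genes (3.82% positive, 2.22% negative). Over both directions this is a larger share than among the members.

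**Figure D4:**
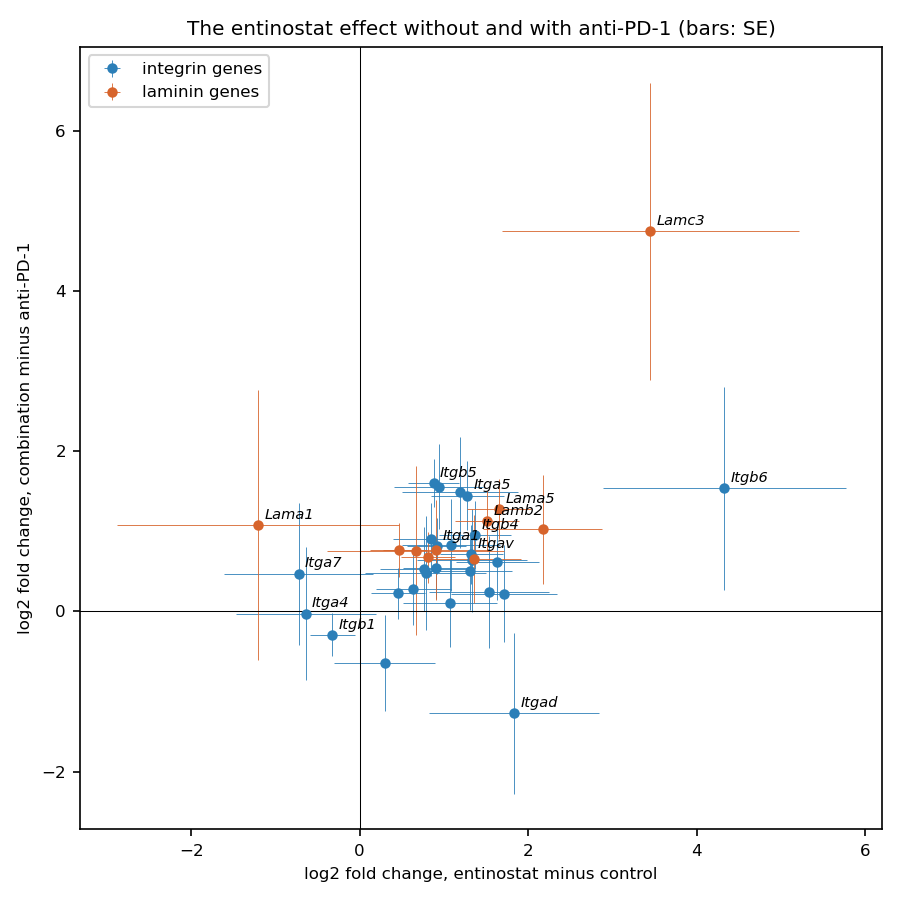
Each point is a gene's log2 fold change for entinostat minus control (x axis) and for the combination minus anti-PD-1 (y axis), comparisons that share no library, with bars of 1 SE and colour for integrin and laminin genes, 1 gene not drawn. For 31 of the 37 genes both values are positive, with Lamc3 highest at 4.74 on the y axis.

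For the combination against control, which asks what the agents did together, 8 of 37 genes were higher and 0 lower, where 11.7% of all genes passed, 3.88% as higher and 7.78% as lower. Lamb2 had the smallest adjusted p (log2 fold change 2.29, SE 0.39, adjusted p = 0.00907), followed by Lama5 (log2 fold change 1.96, SE 0.38, adjusted p = 0.0126), Itgb5 (log2 fold change 1.33, SE 0.30, adjusted p = 0.0206) and Itga5 (log2 fold change 1.79, SE 0.43, adjusted p = 0.0264). Also past the threshold were Lama3 (log2 fold change 2.87, SE 0.72, adjusted p = 0.0299), Itgb4 (log2 fold change 1.50, SE 0.43, adjusted p = 0.0439), Itgav (log2 fold change 1.28, SE 0.37, adjusted p = 0.0481) and Itgb7 (log2 fold change 1.99, SE 0.59, adjusted p = 0.0497). The libraries of 19 genes did not overlap, all of them higher with the combination, beside 31.9% of all genes (15.2% higher). The set's median was 1.03, beside 0.05 over all genes. As single libraries were left out in turn, Lamb2 passed in 12 of 12 fits, Lama5 in 11, Itgb5 in 10, Itga5 in 9, Lama3 in 8, Itgav in 2, and Itgb4 and Itgb7 in 1 each. With only the 6 libraries compared in the fit, 0 members and 0 genes in all passed. This comparison shares the controls with entinostat against control and the combination libraries with the comparison against anti-PD-1.

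The antibody alone moved no member past the threshold. Against control, 0 of 37 genes and 0.00574% of all genes (1 gene) passed in edgeR. At an unadjusted p under 0.05 were 3 members, all higher, and 15.4% of all genes (5.2% higher, 10.2% lower). The members' share was below the background over both directions and above it among higher genes alone. Of the 37, 30 had positive log2 fold changes, with a median of 0.46 beside -0.0013 over all genes. DESeq2 called 0 members and 3.57% of all genes. Lamb2 was the only member whose libraries did not overlap, with 8.86 to 19.6 CPM with anti-PD-1 and 4.71 to 8.11 CPM in controls, where 17.5% of all genes did not overlap (log2 fold change 1.16, SE 0.38, adjusted p = 0.189). For the main effect of anti-PD-1, 0 members and 0% of all genes passed, and DESeq2 called 0 members and 0.433% of all genes. Here 3 members had an unadjusted p under 0.05, all higher, beside 10.8% of all genes (3.88% higher, 6.94% lower). Again the members' share was below the background over both directions and above it among higher genes alone. Of the members, 0 had libraries that did not overlap between the arms, beside 0.212% of all genes (0.0631% higher, 0.149% lower). The set's median log2 fold change was 0.27, beside 0.02 over all genes. A p that misses the threshold does not show that the antibody left these genes as they were.

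Some members were carried by single libraries, and these were singled out after their values were seen. Lama1 was at 21.7 CPM in control library 1, with 8.97 CPM in combination library 3 and 8.73 CPM in entinostat library 1, and between 0.166 and 3.14 CPM in the other 9. Itga7 was also highest in control library 1. Lamc3 was at 138 CPM in combination library 3, against 0.429 and 1.63 CPM in the other combination libraries. Itgb6 was lowest in control libraries 1 and 3, at 0.0391 and 0.0506 CPM.

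**Figure D5:**
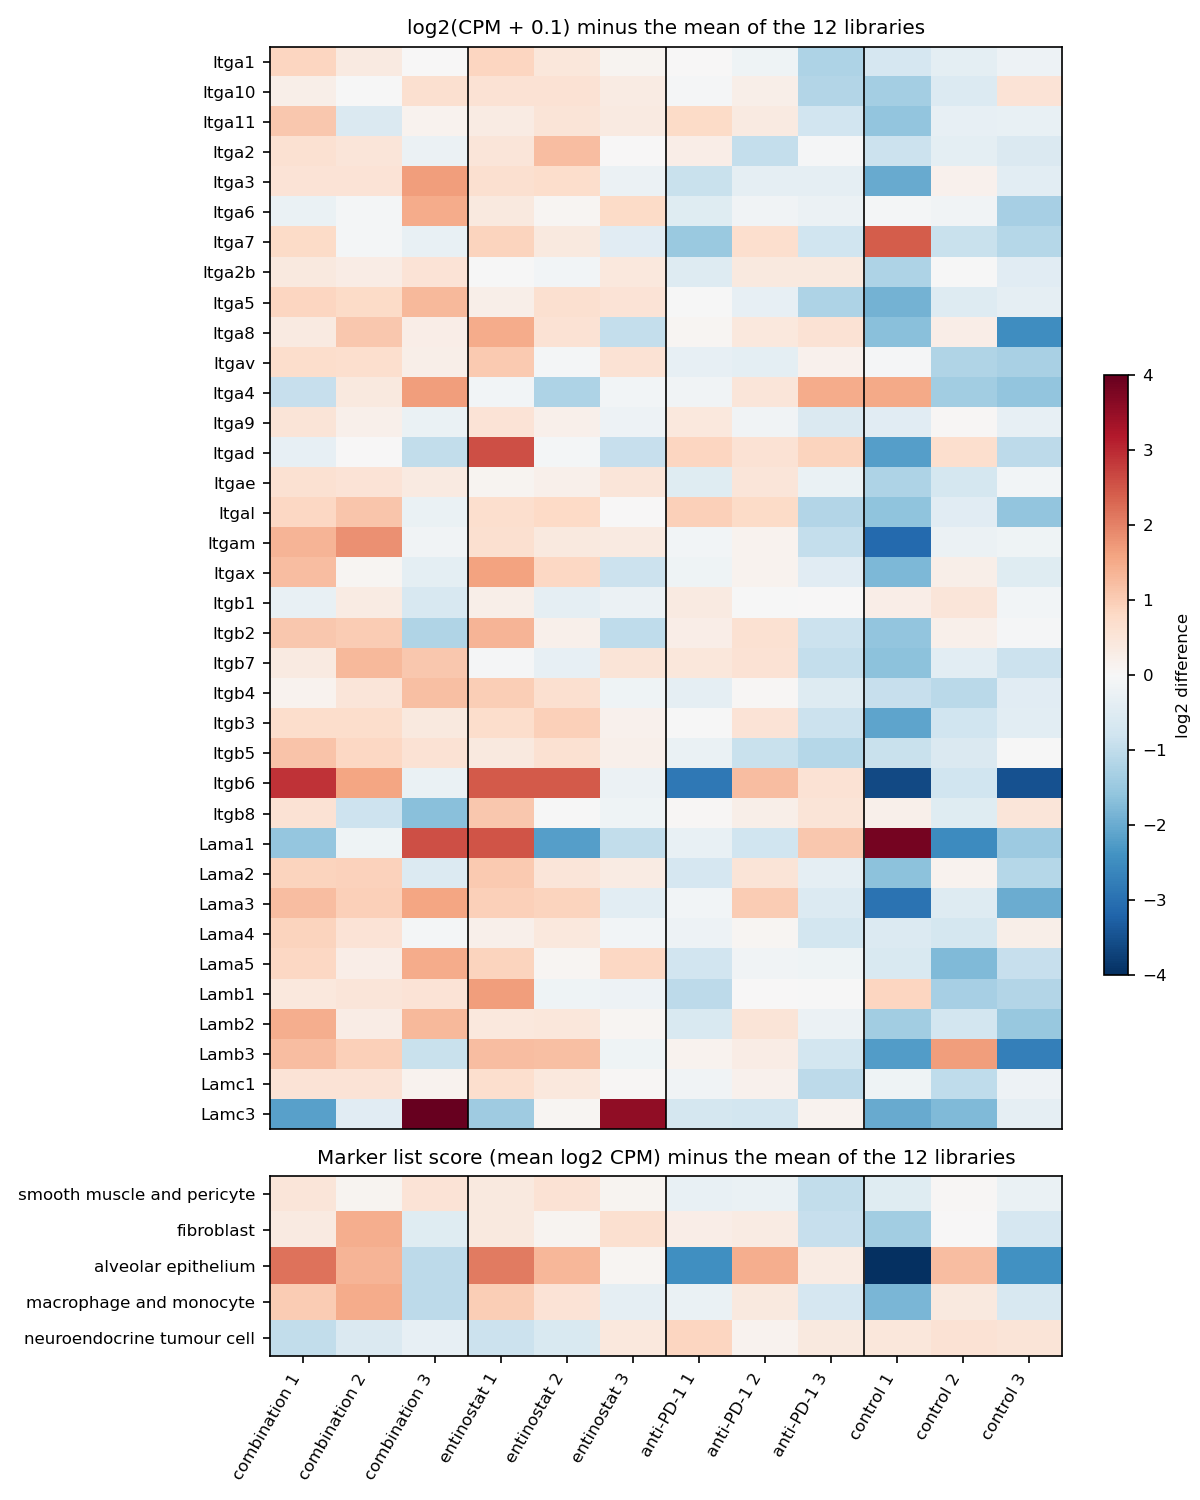
Colour gives log2(CPM + 0.1) of each tested gene but 1 (upper panel) and the mean log2 CPM of 5 marker lists (lower panel), each minus its mean over the 12 libraries, with columns ordered combination, entinostat, anti-PD-1 and control, and the scale ending at 4 in either direction. Lamc3 in combination library 3 and Lama1 in control library 1 stand out from their rows, and the smooth muscle scores average 4.34 with entinostat and 3.58 without.

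Genes that work beside the integrins and laminins were read from 4 lists. Of 26 genes of the focal adhesion and of integrin activation, 4 were higher and 1 was lower with entinostat, with a median log2 fold change of 0.25. Of these 26 genes 15 were positive. Over all genes 3.87% passed as higher and 6.74% as lower. The crosslinker Actn1 averaged 39.1 ± 6.62 CPM with entinostat and 20.0 ± 6.44 CPM without (log2 fold change 0.98, SE 0.21, adjusted p = 0.0191), Tns3, a tensin, 112 ± 16.1 CPM with entinostat and 45.4 ± 24.0 CPM without (log2 fold change 1.29, SE 0.32, adjusted p = 0.0279), the talin Tln2 24.8 ± 8.78 CPM with entinostat and 12.4 ± 3.91 CPM without (log2 fold change 1.02, SE 0.28, adjusted p = 0.0399), and Vcl, vinculin, 48.0 ± 5.36 CPM with entinostat and 33.8 ± 9.61 CPM without (log2 fold change 0.54, SE 0.15, adjusted p = 0.0412). Ilk, the kinase-like adaptor behind beta1, was lower, at 65.1 ± 4.40 CPM with entinostat and 92.1 ± 18.6 CPM without (log2 fold change -0.48, SE 0.10, adjusted p = 0.0191). The same counts, 4 higher and 1 lower, held for the combination against control (11.7% of all genes passed). For entinostat against control 2 were higher and 1 lower (5.27% of all genes), and for the combination against anti-PD-1 0 passed (0% of all genes).

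Of 16 basement membrane partners of laminin, 1 passed, beside 10.6% of all genes (3.87% as higher), and their median was 0.39. The gene that passed was Hspg2, perlecan, the heparan sulfate proteoglycan that ties laminin to collagen IV, at 131 ± 23.3 CPM with entinostat and 38.9 ± 18.03 CPM without (log2 fold change 1.78, SE 0.26, adjusted p = 0.00697). Of 19 tested other integrin ligands 3 were higher, with a median of 0.93. Icam1, the ligand of leukocyte beta2 integrins, averaged 23.9 ± 9.98 CPM with entinostat and 7.98 ± 5.55 CPM without (log2 fold change 1.69, SE 0.44, adjusted p = 0.0351), Spp1, osteopontin, 132 ± 87.4 CPM with entinostat and 26.2 ± 26.1 CPM without (log2 fold change 2.49, SE 0.67, adjusted p = 0.0389), and Fn1, fibronectin, 401 ± 109.5 CPM with entinostat and 163 ± 99.1 CPM without (log2 fold change 1.32, SE 0.36, adjusted p = 0.0408). Among 10 tested other laminin receptors and hemidesmosome genes 0 passed in edgeR. The most abundant were the plakins Dst, at 339 ± 96.2 CPM with entinostat and 250.1 ± 74.5 CPM without (log2 fold change 0.44, SE 0.22, adjusted p = 0.202), and Plec, at 148 ± 29.7 CPM with entinostat and 99.7 ± 35.9 CPM without (log2 fold change 0.59, SE 0.21, adjusted p = 0.086).

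Markers of other cell types and of the tumour cells were read alongside the entinostat main effect, in which 3.87% of all genes passed as higher and 6.74% as lower. Of 11 smooth muscle and pericyte markers 3 were higher and 0 lower, 10 had positive log2 fold changes and the median was 0.80. The mean log2 CPM was 4.34 ± 0.22 with entinostat and 3.58 ± 0.35 without (SD, n = 6 each), summed levels were 297 to 452 CPM and 163 to 415 CPM, and none was at 0. Of 12 fibroblast markers 1 was higher, 12 were positive and the median was 0.80. Summed levels were 555 to 1509 CPM and 218 to 882 CPM, and Tcf21 was at 0 in at least 1 library. Of 15 neuroendocrine tumour markers 6 were lower and 0 higher, 0 were positive and the median was -1.05. Their mean log2 CPM was 5.01 ± 0.50 and 6.00 ± 0.23, with summed levels of 610 to 1315 CPM and 1240 to 2664 CPM, and none at 0. Of 16 alveolar markers 0 passed, but 14 were positive and the median was 0.94. Summed levels were 106 to 775 CPM and 67.4 to 554 CPM, and Cldn18, Sftpa1, Sftpd and Slc34a2 were at 0 in at least 1 library. Of the neutrophil markers, 8 were tested, 8 had positive log2 fold changes, 1 was higher and the median was 1.29. Their summed levels were 10.7 to 78.0 CPM with entinostat and 0.998 to 59.6 CPM without, and Elane, Ltf, Mpo, Ngp and Retnlg were at 0 in at least 1 library. Neutrophils carry Itgam and Itgb2, and the part of these markers in the values of both genes was not tested. Of 12 endothelial markers 0 passed, 11 were positive with a median of 0.48, summed levels were 85.2 to 193 CPM and 84.9 to 119 CPM, and none was at 0. The lists did not all rise. Of 13 tested T and NK cell markers 2 were positive (median -0.60), at summed levels of 4.67 to 12.9 CPM and 6.21 to 21.1 CPM. Of 9 B and plasma cell markers 4 were positive (median -0.11), of 11 airway markers 6 (0.007) and of 5 Schwann cell markers 2 (-0.059). Platelet, mesothelium, muscle and erythroid lists had medians of 0.24 to 0.33. In each of these lists 0 passed.

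Fits with the mean log2 CPM of a list as a covariate followed, those for smooth muscle, neuroendocrine and fibroblast markers chosen after seeing the data. With the smooth muscle score, 0 members and 0 genes in all passed, and the log2 fold changes of the called genes lay between 0.14 (Itga1) and 1.84 (Lama5 and Itgav). The set's median was then 0.42, with 27 of 37 positive, and with the neuroendocrine score 0.48, with 25 positive. Both scores themselves differed on average with entinostat, so these fits cannot separate score from treatment. The same limit holds for the other scores used, whose means with and without entinostat also differed. These were 3.95 ± 1.25 and 1.97 ± 2.29 (alveolar), 3.57 ± 0.96 and 2.69 ± 0.83 (macrophage), and 4.09 ± 0.64 and 3.29 ± 0.71 (fibroblast). With the neuroendocrine score, 0 members and 2 genes in all passed, with the alveolar score 1 member (255 genes in all) and with the fibroblast score 3 (637 genes). Of 4 classes of transcript length of about equal size, the longest holds 26 of the 37 genes. In that class the median log2 fold change of all genes was 0.17 and 7.42% were called higher, beside -0.13 and 1.68% in the shortest class. With that trend removed, 4 members passed in place of 7 and the set's median was 0.68.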

How the data were processed

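RNA-seq was made from dissected, flash-frozen lung tumours, with poly(A) selection per the labels' protocols. The authors deposited raw counts per gene as 1 table of 22738 rows and 12 columns, all of which were used. Per the submitters' processing notes, which give no order, the tools included STAR 2.5.4a and the build mm9, Trimmomatic 0.36 and Trim Galore, and R 3.5.1 with DESeq2 1.22.2. Annotation, strand setting and the counting of multi-mapping reads were not given in the sources used here. Members close in sequence (Itgb2 and Itgb2l, or Itgad, Itgam and Itgax) and members that overlap other genes are therefore uncertain. Between 65.3% and 77.2% of the counts from 1 to 20 in a library are even, and halved counts were tried.

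Libraries were grouped by title. For the combination the titles name both agents where the treatment tag names only aPD1, and the titles were used. The single batch label, 2, allows no comparison of batches. No pair of libraries, of 66, looked like a library deposited again (the lowest chi-square was 33.6 times its degrees of freedom).

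Counts were fitted in R 4.3.3 with edgeR 4.0.16 (filterByExpr, TMM factors, a mean per group over all 12 libraries, robust quasi-likelihood F test), which kept 17426 genes. P-values were adjusted by Benjamini-Hochberg over all of these in each of 7 comparisons, at a threshold of 0.05. DESeq2 1.42.0, other scalings, no filter, the compared groups alone, a replicate block, a length correction, marker scores as covariates and fits leaving out each library were alternatives. Lengths are those of the longest GENCODE vM21 transcript, found for 95.5% of tested genes, and promoter windows are from RefSeq (GRCm38.p6). No gene coordinates of the deposited build were given. The edgeR fit of the entinostat main effect was run on simulated counts with planted changes, and the other steps were not tested in this way.

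Of the members, 1 is counted in the sums and counts but not reported here by name. The members and lists were chosen with earlier results of these data known. Values per library are given for members past the threshold in any comparison and for the 2 with the highest mean CPM in each role. Of each list, up to 4 genes past the threshold by smallest adjusted p are named, or else the 2 highest, and Vcl was added so that each called gene of its list is named. At totals of 31295987 counts or more, the spread between libraries rather than counting error sets the precision of all but the lowest members.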

Additional observations from a re-analysis of the deposited data

How the results depend on the processing

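With 7 of the 37 members called with entinostat, RLE factors, removal of Rpph1, Rn45s and Rmrp, upper quartile factors (which shift the median of all genes to 0.15), no filter on low counts, halved counts and the macrophage covariate gave 5 to 9 (all genes 833 with the macrophage covariate and 1661 to 1947 with the others). DESeq2 called 16, removal of the length trend left 4, the alveolar score 1 and, of the covariates chosen after seeing the data, the fibroblast score 3, the smooth muscle score 0 and the neuroendocrine score 0. In the same order, all genes called were 3342, 1948, 255, 637, 0 and 2, beside 1849. For entinostat against control, with 2 called, DESeq2 called 12, the macrophage and fibroblast scores 1 each, and the fit to the compared groups alone, the length correction, the alveolar, smooth muscle and neuroendocrine scores 0 each. All genes called, 919 in the reported fit, were then 2330 (DESeq2), 263 (macrophage), 191 (fibroblast), 995 (length correction) and 0 for the rest. For the combination against control, with 8 called, DESeq2 called 15, no filter 5, the length correction 5, the macrophage score 4, the alveolar and fibroblast scores 2 each, and the compared groups alone and the smooth muscle and neuroendocrine scores 0 each. All genes called, 2033 in the reported fit, were then 3607 (DESeq2), 1893 (no filter), 2617 (length correction), 976 (macrophage), 352 (alveolar), 709 (fibroblast) and 0 for the rest. Between the combination and anti-PD-1, with 0 called, DESeq2 called 2 (422 genes in all) and the others 0. The comparisons of anti-PD-1 with control, its main effect and the interaction gave 0 members under every alternative run. The cause was not tested.

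Leaving out a library in turn gave 3 (without combination library 3) to 11 (without control library 2) for the entinostat main effect, and 4 without anti-PD-1 library 1 or 3, entinostat library 1 or 2, or combination library 1. All genes called ran from 600 to 2022, with 869 without combination library 3 and 1601 without control library 2. It gave 0 to 4 for entinostat against control, with 4 without control library 2 and 0 without control library 3 or any entinostat library. All genes then ran from 2 to 1002, with 527 without control library 2, 1002 without control library 3 and 2 to 198 without an entinostat library. It gave 2 to 10 for the combination against control, with 2 without combination library 1 or 3 and 3 without control library 1. All genes ran from 306 to 2038, with 306, 383 and 921 in these 3 fits. The other comparisons gave 0 to 0.

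Whether same-numbered libraries form pairs was not settled, as differently numbered ones were not compared. Over 18 such pairs the correlation of deviations from the group means ran from -0.292 to 0.226, and 8 exceeded 0.1. With a replicate block, 5 members were called for the entinostat main effect (974 genes in all), 6 for the combination against control (1087 genes) and 1 for entinostat against control (321 genes).

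Some log2 fold changes that missed the threshold changed sign. Itga4, at -0.33, was 0.42 with the alveolar, 0.62 with the macrophage, 1.53 with the smooth muscle, 0.024 with the neuroendocrine and 0.74 with the fibroblast score, and 0.54 without control library 1 (-0.77 to 0.54 as libraries were left out). Itgb2, at 0.63, was -0.17, -0.43, -0.39, -1.01 and -0.14 in the same order of scores. With the smooth muscle score Itga10 was -0.32, Itga9 -0.23, Itgax -0.25 and Lama3 -0.079, and with the neuroendocrine score Itgax was -0.84 and Lamb1 -0.30.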
